A study of Mus musculus with 6 samples.

Results

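The genes described here are 10 classical markers of megakaryocytes and of the platelets they shed: Pf4, Itga2b, Gp1ba, Gp1bb, Gp6, Gp9, Vwf, Selp, Cd9 and Treml1. They were chosen by name, and all 10 were found among the 23997 gene symbols of the deposited expression table. The table covers hematopoietic stem and progenitor cells (HSPCs) that were sorted from bone marrow of C57BL/6 mice aged 6 to 8 weeks as Lin-Sca1+cKit+ (LSK) cells, a gate that keeps stem cells and multipotent progenitors and leaves out mature blood cells. This is the gate of the labels and of the study's methods, and a figure legend of the study names a Sca1-negative gate instead. There were 3 libraries from wildtype mice and 3 from Mirc11-/- mice, each made from the RNA of several pooled mice under normal hematopoiesis, with no stimulus. In every cell the Mirc11-/- mice lack a miRNA cluster that codes for miR-23a, miR-27a and miR-24-2. Effects within HSPCs and effects of their surroundings therefore cannot be told apart. The study names a paralog cluster, Mirc22, which codes for miRNAs of the same 3 families and is not the one deleted. Whether its miRNAs remained in these cells was not tested. All 6 libraries carry 1 batch date in the labels. Wildtype libraries held 16 to 19 reads on Mir23a, 10 to 28 on Mir27a and 8 to 44 on Mir24-2, and each Mirc11-/- library held 0 on all 3 genes.

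Megakaryocytes are the large polyploid cells of the bone marrow that release platelets. They arise from stem cells through progenitors that can also form red cells, under the cytokine thrombopoietin and transcription factors of the GATA and ETS families. Some stem cells already carry transcripts of platelet proteins, among them Vwf and Itga2b, while the late platelet receptor for collagen, encoded by Gp6, is known from maturing megakaryocytes. The 10 genes encode parts of the platelet's working surface and cargo. Gp1ba, Gp1bb and Gp9 give subunits of the receptor that catches von Willebrand factor, Itga2b gives the α chain of the fibrinogen receptor, and Vwf, Pf4 and Selp give proteins stored in α-granules.

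A miRNA binds mRNAs mainly through its seed, bases 2 to 8 counted from its 5′ end. The mature sequences of 3 miRNAs coded by the deleted cluster are shown with the seed in capitals (RefSeq, GRCm38.p6). Matches to these bases are what a direct target would carry.
miR-23a-3p, chr8:84208563-84208583, plus strand: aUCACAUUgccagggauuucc
miR-27a-3p, chr8:84208727-84208747, plus strand: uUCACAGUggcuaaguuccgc
miR-24-3p, chr8:84208875-84208896, plus strand: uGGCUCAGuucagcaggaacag

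Matches of 7 bases to at least 1 of these seeds (in the mRNA AATGTGA for miR-23a-3p, ACTGTGA for miR-27a-3p and CTGAGCC for miR-24-3p) stood in the longest annotated 3′ UTR of 39.8% of the 13557 tested genes that have one. Of the 10 platelet genes, only Gp6 held any. Its 3′ UTR of 4898 bases had a match to miR-23a-3p at bases 2419 to 2425 and a match to miR-27a-3p at bases 3349 to 3355. The 3′ UTRs of the other 9 genes were 123 (Pf4) to 1008 (Selp) bases long and held none of the 3 letter runs. Both matches in Gp6 are shown with 10 bases on each side and the match in capitals.
Gp6, match to miR-23a-3p: cttggttaacAATGTGAacagatccaa
Gp6, match to miR-27a-3p: gtctgcacctACTGTGAcccacataga

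Megakaryocyte genes are known for promoters that hold GATA and ETS motifs. The 250 bases before the RefSeq start of 9 of the 10 genes were searched on both strands for GATAA, the core of the GATA motif, which reads TTATC on the opposite strand, and for GGAAG, a core of the ETS motif, which reads CTTCC there. GATAA was present in 3 of these 9 promoters (Gp9, Gp6 and Gp1ba), against 22.6% of 32851 promoters. GGAAG was present in 8 of 9, all but Gp6, against 64.1%. Both motifs together stood in the promoters of Gp9 and Gp1ba, against 13.2% of all promoters. These promoters, of genes whose products sit in the same receptor, are shown first, followed by those of Itga2b, the gene with the most reads, and Selp, the gene with the largest difference between the genotypes. Motifs are in capitals, and the sequences read 5′ to 3′ on the strand of the gene (GRCm38.p6).
Gp1ba, chr11:70638872-70639121, plus strand: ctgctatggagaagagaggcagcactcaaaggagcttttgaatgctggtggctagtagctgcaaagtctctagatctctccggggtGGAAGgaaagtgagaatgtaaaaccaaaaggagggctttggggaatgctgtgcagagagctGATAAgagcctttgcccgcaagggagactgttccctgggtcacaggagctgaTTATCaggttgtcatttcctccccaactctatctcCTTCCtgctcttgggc
Gp9, chr6:87777820-87778069, plus strand: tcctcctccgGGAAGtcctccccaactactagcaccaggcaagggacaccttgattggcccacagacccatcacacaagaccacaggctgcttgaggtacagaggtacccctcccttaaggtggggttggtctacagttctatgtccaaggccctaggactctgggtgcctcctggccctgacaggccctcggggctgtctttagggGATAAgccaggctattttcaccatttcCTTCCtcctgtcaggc
Itga2b, chr11:102469884-102470133, minus strand: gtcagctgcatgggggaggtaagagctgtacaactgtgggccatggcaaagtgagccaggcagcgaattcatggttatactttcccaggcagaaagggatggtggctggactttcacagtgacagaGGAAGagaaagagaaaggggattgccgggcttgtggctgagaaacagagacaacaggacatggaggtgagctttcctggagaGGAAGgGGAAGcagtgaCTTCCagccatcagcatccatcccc
Selp, chr1:164115014-164115263, plus strand: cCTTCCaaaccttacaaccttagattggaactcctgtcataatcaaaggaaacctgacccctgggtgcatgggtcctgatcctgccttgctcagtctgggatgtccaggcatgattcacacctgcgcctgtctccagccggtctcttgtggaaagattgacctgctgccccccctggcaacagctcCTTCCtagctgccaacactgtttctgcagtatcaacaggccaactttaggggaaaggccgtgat

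In Gp1ba the GATA motifs begin 103 and 51 bases before the start of the transcript and the ETS motifs 164 and 16 bases before it. Gp9 has its GATA motif at 43 bases and ETS motifs at 240 and 16 bases. The Itga2b window holds 4 ETS motifs, at 124, 42, 36 and 25 bases, and Selp holds ETS motifs at 249 and 64 bases. Neither of the last 2 windows holds GATAA.

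Values are reads per gene scaled by 1 factor per library, called normalized counts, in which 1 read is worth 0.946 to 1.04. Libraries held 15029379 to 17051541 reads in genes. The genotypes were compared by limma on log2(value + 1) over 15662 genes with a mean of at least 1, with p-values adjusted by Benjamini-Hochberg and called under 0.05, and every log2 fold change is the Mirc11-/- minus the wildtype mean on this scale. Kit (6644 to 9950) and Ly6a (374 to 683), the genes of the sorted surface proteins, were read in all 6 libraries. The B and T cell genes Ms4a1, Cd3e, Cd3d and Cd3g stayed under 25. Itgam, a myeloid gene whose protein, CD11b, the study lists in the lineage mix of this sort, was still read at 1263 to 1653. In a principal component analysis the first component held 31.3% of the variance. On it Mirc11-/- library 3 lay at -19.5, among the wildtype libraries at -26.2 to -13.5, while Mirc11-/- libraries 1 and 2 lay at 54.6 and 25.5. On the second component library 3 lay at -35.8, near Mirc11-/- library 2 at -32.5 and outside the wildtype libraries at -2.15 to 27. Mirc11-/- library 1 lay at 18 there. Because of its place on the first component, calls that change without library 3 are given with and without it.

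All the platelet genes but Gp6 were read in every LSK library at 26.8 normalized counts or more, while Gp6 was at the edge of detection. Limma called 0 of the 9 tested genes at an adjusted p under 0.05, where 0.00638% of all genes were called higher and 0.0255% lower. With an unadjusted p under 0.05, Vwf was higher and Selp lower in Mirc11-/- HSPCs, against 4.15% of all genes higher and 4.09% lower. For 1 of the 9 genes, Selp, the groups did not overlap: it was lower in all 3 Mirc11-/- libraries. Over all genes, Mirc11-/- libraries lay wholly above wildtype for 6.42% and wholly below for 6.53%. The median log2 fold change of the 9 genes was 0.14, with 7 above and 2 below 0, while the median of all genes was 0.00246. In bulk RNA, fewer cells that carry a transcript and less transcript per cell cannot be told apart.

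**Figure D1:**
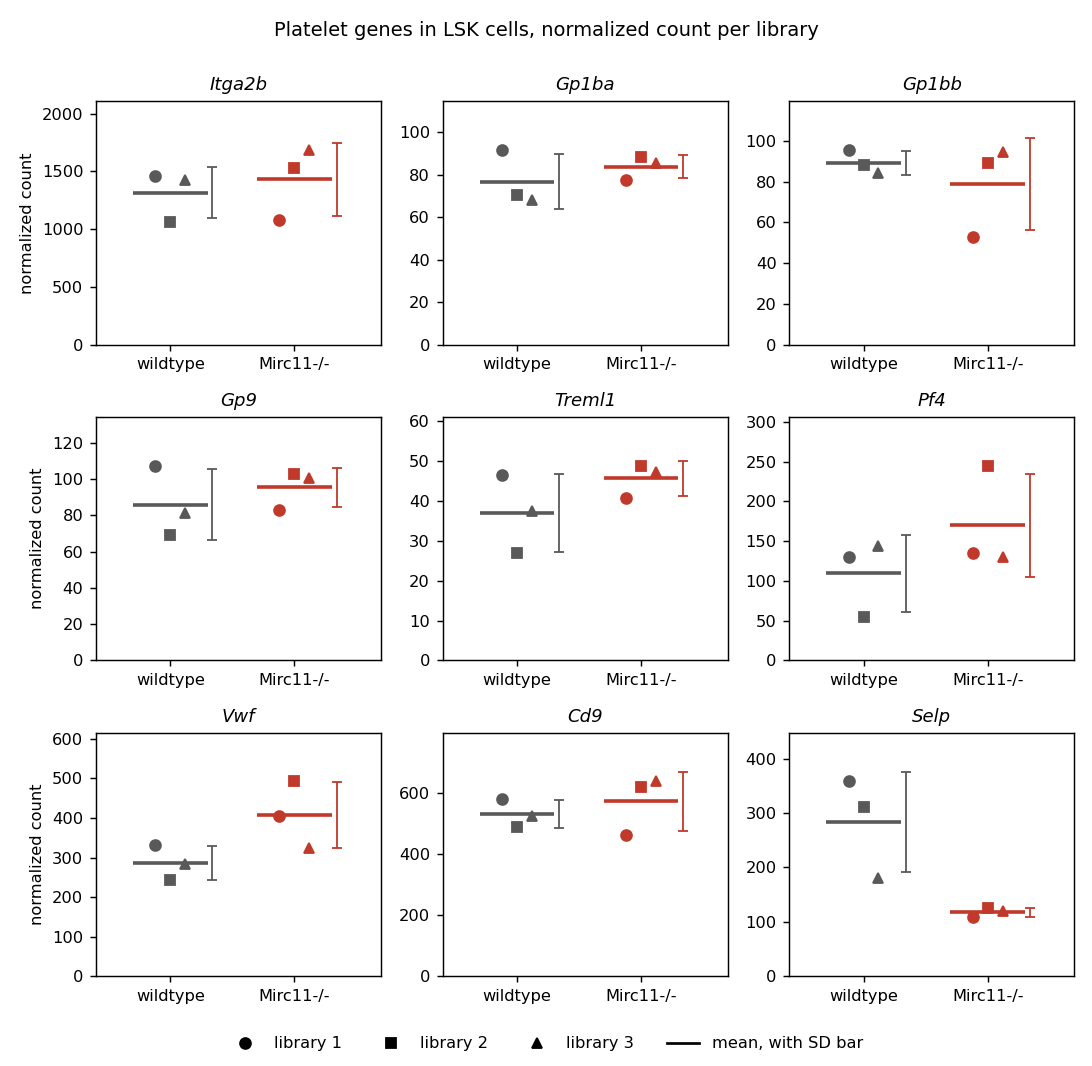
Normalized count of 9 platelet genes in each LSK library. Each panel is 1 gene with its own axis from 0; points are libraries, lines are means and bars are SDs (n = 3 each). Selp is the gene whose groups do not overlap, with Mirc11-/- libraries at 109 to 125 and wildtype libraries at 180 to 358.

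Itga2b (chr11:102453297-102470122, minus strand; positions here and for the other genes are from GENCODE vM21, GRCm38) encodes integrin αIIb, the CD41 antigen, which marks megakaryocytes and also early multipotent cells. It had the most reads of the 10 genes, 8251 over the 6 libraries. Wildtype libraries held 1458, 1064 and 1429 normalized counts and Mirc11-/- libraries 1077, 1532 and 1687. Wildtype library 2 and Mirc11-/- library 1 were the low ones, and the groups overlapped. The log2 fold change was 0.11 (SE 0.18, 95% confidence interval -0.30 to 0.52, adjusted p = 0.886 by limma), and it was -0.04 without wildtype library 2 and -0.02 without Mirc11-/- library 3.

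The receptor for von Willebrand factor is built from the products of Gp1ba, Gp1bb, Gp9 and Gp5, and loss of the first 3 is known to cause the bleeding disorder Bernard-Soulier syndrome. Gp1ba (chr11:70639122-70642036, plus strand), the ligand-binding subunit, was read at 91.7, 70.5 and 67.9 normalized counts in wildtype and 77.6, 88.3 and 85.5 in Mirc11-/- libraries. Gp9 (chr6:87778072-87779768, plus strand), a small subunit that the complex needs to reach the surface, was read at 107, 69.5 and 81.1 in wildtype and 83.2, 103 and 101 in Mirc11-/- libraries. For both genes wildtype library 1 was the highest of all 6 libraries, and the groups overlapped. Their log2 fold changes were 0.14 (SE 0.20, 95% confidence interval -0.33 to 0.60) for Gp1ba and 0.17 (SE 0.22, -0.33 to 0.67) for Gp9, with adjusted p-values by limma of 0.872 and 0.853. With 1 library left out, Gp1ba ranged from 0.06 (wildtype library 3) to 0.27 (wildtype library 1) and Gp9 from 0.03 (wildtype library 2) to 0.34 (wildtype library 1).

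Gp1bb (chr16:18620317-18622403, minus strand) encodes the subunit that is disulfide-linked to the product of Gp1ba. Wildtype libraries held 95.7, 88.3 and 84.1 normalized counts and Mirc11-/- libraries 53.0, 89.3 and 94.6. The Mirc11-/- group was split, with library 1 below every other library and libraries 2 and 3 within the wildtype range. The log2 fold change was -0.22 (SE 0.25, 95% confidence interval -0.79 to 0.35, adjusted p = 0.824 by limma), and 0.04 without Mirc11-/- library 1. Gp1bb shares exon sequence with Sept5, a septin gene on the same strand that begins upstream and runs into it, and the assignment of reads between them is uncertain. The table holds an entry 5-Sep, a symbol of the form that a spreadsheet gives to Sept5, and its values had the same low library, with 249, 216 and 228 in wildtype and 115, 250 and 248 in Mirc11-/- libraries. The part of Sept5 in the Gp1bb values was not tested. Gp5, the remaining subunit, was read at 140, 94.3 and 91.2 in wildtype and 116, 172 and 162 in Mirc11-/- libraries (log2 fold change 0.47, SE 0.23, adjusted p = 0.618 by limma).

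Gp6 (chr7:4363965-4397744, minus strand) encodes the receptor that signals from collagen together with the Fc receptor γ chain. It had 2 reads in all, 1 in wildtype library 3 and 1 in Mirc11-/- library 1, and 0 in the other 4 libraries. It fell below the minimum mean of 1 and was not tested, and a difference between the genotypes was not detectable at this depth. The only platelet gene with seed matches to the miRNAs of the deleted cluster was thus the one gene too low to compare.

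Treml1 (chr17:48359916-48367176, plus strand) encodes a receptor that is kept in platelet α-granules and is taken as restricted to the megakaryocyte lineage. It had 248 reads over the 6 libraries, the lowest of the 9 tested genes. Wildtype libraries held 46.3, 26.8 and 37.5 normalized counts and Mirc11-/- libraries 40.7, 48.8 and 47.3. The groups overlapped through wildtype library 1, and the log2 fold change was 0.33 (SE 0.28, 95% confidence interval -0.30 to 0.96, adjusted p = 0.760 by limma). It was 0.12 with wildtype library 2 left out and 0.51 with wildtype library 1 left out.

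Cd9 (chr6:125460266-125494791, minus strand) encodes a tetraspanin of the platelet membrane that other blood cells carry too. Its wildtype libraries held 579, 487 and 523 normalized counts and its Mirc11-/- libraries 461, 618 and 637. Mirc11-/- library 1 was the lowest and library 3 the highest of all 6. On the log2 scale Mirc11-/- minus wildtype was 0.10 (SE 0.14, 95% confidence interval -0.22 to 0.42, adjusted p = 0.865 by limma), the narrowest interval among the 9 genes. With 1 library left out it ranged from 0.01 (Mirc11-/- library 3) to 0.25 (Mirc11-/- library 1). A transcript on the other strand, Gm26728, overlaps an exon of Cd9. Cd9 and Vwf are neighbours on chromosome 6, on opposite strands and 51983 bases apart.

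Pf4 (chr5:90772435-90773383, plus strand) encodes platelet factor 4, a chemokine of the α-granule. Wildtype libraries held 130, 54.6 and 144 normalized counts and Mirc11-/- libraries 135, 245 and 130. Wildtype library 2 was the lowest and Mirc11-/- library 2 the highest, and the remaining 4 libraries lay together between 130 and 144. The estimated log2 fold change was 0.68 (SE 0.39, 95% confidence interval -0.19 to 1.56, adjusted p = 0.640 by limma), the widest interval among the 9 genes. It rested in part on single libraries, with 0.25 when wildtype library 2 was left out and 0.39 when Mirc11-/- library 2 was left out. Ppbp, a further platelet chemokine gene, ends 2372 bases before Pf4 on chromosome 5. Its values were 11.8, 6.95 and 23.3 in wildtype and 62.4, 20.8 and 4.02 in Mirc11-/- libraries, so that the highest and the lowest value both stood in the Mirc11-/- group and in other libraries than those of Pf4.

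Vwf (chr6:125546774-125686679, plus strand) encodes von Willebrand factor, the large adhesive protein made by megakaryocytes and endothelial cells, and in stem cells its transcript is known to mark a platelet-biased subset. Wildtype libraries held 331, 244 and 283 normalized counts and Mirc11-/- libraries 404, 492 and 325. Mirc11-/- libraries 1 and 2 lay above all wildtype libraries, and library 3 lay between wildtype libraries 1 and 3. The means were 286 ± 43.7 in wildtype and 407 ± 83.7 in Mirc11-/- HSPCs (SD, n = 3 each). Vwf had a log2 fold change of 0.50 (SE 0.18, 95% confidence interval 0.09 to 0.90), with an adjusted p of 0.524 by limma. Without Mirc11-/- library 3 the log2 fold change was 0.65 and the adjusted p 0.0594 by limma. It was 0.35 (95% confidence interval -0.08 to 0.78) without Mirc11-/- library 2 and 0.39 (-0.07 to 0.85) without wildtype library 2. Without wildtype library 3 it was 0.50 (-0.005 to 0.996), so that the interval took in 0 in each of these fits but the first. With all libraries the adjusted p was 0.503 by edgeR and 0.293 by DESeq2 on the recovered reads.

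Since endothelial cells also express Vwf and Selp, endothelial markers were examined beside them. Of 15 endothelial markers, Cdh5, Kdr, Stab2, Ramp2, Cldn5 and Lyve1 were under 25 normalized counts in all 6 libraries. Others were read in every library, such as Emcn (159 to 302) and Egfl7 (1145 to 1953). The summed level of the list was 8527 to 9918 in wildtype and 6079 to 9283 in Mirc11-/- libraries, with Eng and Pecam1, which HSPCs themselves express, as its highest members. For 1 of the 14 tested markers, Pecam1, the groups did not overlap, with the lower values in Mirc11-/- libraries, against 6.53% of all genes. With an unadjusted p under 0.05 by limma, 2 markers were lower, Pecam1 (4.88e-04) and Egfl7 (0.0403), and 0 higher. Over all genes the shares were 4.09% lower and 4.15% higher.

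Selp encodes P-selectin, the adhesion receptor that platelets and endothelial cells move from storage granules to the surface when activated. Wildtype libraries held 358, 311 and 180 normalized counts and Mirc11-/- libraries 109, 125 and 120. All 3 Mirc11-/- libraries lay below all 3 wildtype libraries, and the wildtype libraries were the ones that spread. The means were 283 ± 92.0 in wildtype and 118 ± 8.12 in Mirc11-/- HSPCs (SD, n = 3 each), 2.40-fold higher in wildtype. The log2 fold change was -1.20 (SE 0.24, 95% confidence interval -1.76 to -0.65) with an unadjusted p of 8.82e-04 and an adjusted p of 0.405 by limma.

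Whether Selp passed the threshold depended on the fit. Without Mirc11-/- library 3 its adjusted p was 0.0412 by limma, in a fit that called 1.94% of all genes higher and 1.46% lower. Over the other libraries left out in turn, the log2 fold change was largest in size without wildtype library 3 (-1.50) and smallest without wildtype library 1 (-1.004). None of those fits called Selp, with an adjusted p by limma of 0.174 (without wildtype library 3) to 0.999 (without Mirc11-/- library 2). On the recovered reads of all 6 libraries, DESeq2 gave -1.27 with an adjusted p of 0.000733 and called 0.243% of all genes higher and 0.555% lower. EdgeR gave -1.27 with an adjusted p of 0.382 and called 0.00638% of all genes higher and 0.0192% lower. Selp was the only one of the 9 genes called by limma without Mirc11-/- library 3 or by DESeq2.

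**Figure D2:**
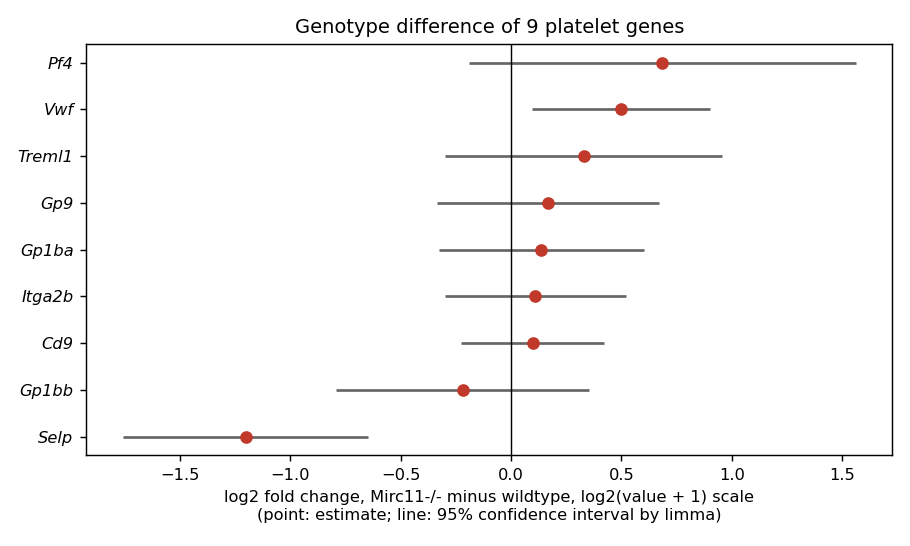
Log2 fold change (Mirc11-/- minus wildtype, log2(value + 1) scale) of the 9 tested platelet genes, with 95% confidence intervals by limma. The intervals of Selp (-1.76 to -0.65) and Vwf (0.09 to 0.90) leave out 0, on opposite sides, and neither gene passed the threshold after adjustment over all genes. That of Vwf took in 0 when Mirc11-/- library 2, wildtype library 2 or wildtype library 3 was left out.

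Selp lies on chromosome 1 from 164115264 to 164150026 on the plus strand (GRCm38), shortly before F5. The noncoding gene Gm16548 runs on the other strand from 164148591 to 164152217, over the last part of Selp and the start of F5, and shares exon positions with Selp. The library kit did not keep the strand, so reads of Selp and Gm16548 in the shared stretch cannot be told apart. Gm16587, an antisense gene from 164143432 to 164146366, also shares exon positions with Selp and has no entry among the deposited symbols. Its part in the Selp values was not tested. Gm16548 held 112, 98.3 and 53.7 normalized counts in wildtype and 24.6, 34.3 and 37.2 in Mirc11-/- libraries, with no overlap and wildtype library 3 as the lowest of its group, as for Selp. Its log2 fold change was -1.39 (SE 0.32, adjusted p = 0.419 by limma).

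F5, the gene of coagulation factor V, which platelets store, begins 1812 bases after Selp. Its groups overlapped, with 290, 235 and 239 in wildtype and 227, 287 and 301 in Mirc11-/- libraries (log2 fold change 0.09, SE 0.16, adjusted p = 0.899 by limma). By DESeq2 the adjusted p of Gm16548 was 0.0143, and without Mirc11-/- library 3 it was 0.0492 by limma.

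**Figure D3:**
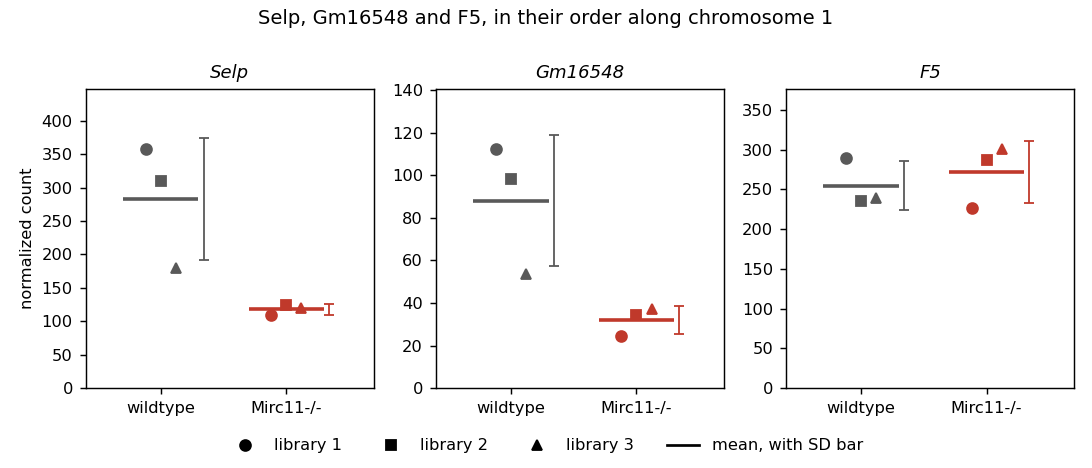
Normalized count of Selp, Gm16548 and F5 in each LSK library, in chromosome order, with means and SDs (n = 3 each) and axes from 0. Selp and Gm16548 are lower in all 3 Mirc11-/- libraries than in any wildtype library, while F5 overlaps between the groups.

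Selp and Vwf, both α-granule cargo, were set against each other within each library, which removes library size. The ratio of the Selp to the Vwf count was 1.08, 1.27 and 0.638 in wildtype and 0.269, 0.253 and 0.368 in Mirc11-/- libraries. The ratio of the Selp to the Itga2b count was 0.246, 0.292 and 0.126 in wildtype and 0.101, 0.0814 and 0.0710 in Mirc11-/- libraries. In both ratios every Mirc11-/- library lay below every wildtype library, which restates the Selp values and adds no separate measurement. The ratio of Vwf to Itga2b was 0.227, 0.229 and 0.198 in wildtype and 0.375, 0.321 and 0.193 in Mirc11-/- libraries, and overlapped through Mirc11-/- library 3, the lowest of all 6.

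Levels were compared between genes per kb of annotated exon (GENCODE vM21). Cd9 had the highest mean over the 6 libraries, 269 normalized counts per kb, followed by Itga2b (252), Pf4 (194) and Gp9 (103). A lower group held Selp (45.4), Gp1bb (40.3), Gp1ba (29.5), Treml1 (29.4) and Vwf (21.6), and Gp6 stood at 0.0553. The place of Selp differed by genotype: its mean was 64.1 in wildtype, above Gp1bb (42.8), and 26.7 in Mirc11-/- libraries, below Gp1bb (37.8), Treml1 (32.5) and Gp1ba (30.8). Every neighbouring pair in this order overlapped over the libraries except Vwf and Gp6. Against 14883 tested genes with an annotated length, Cd9 stood above 75.7% of genes, Itga2b above 74.0% and Vwf above 27.7%.

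**Figure D4:**
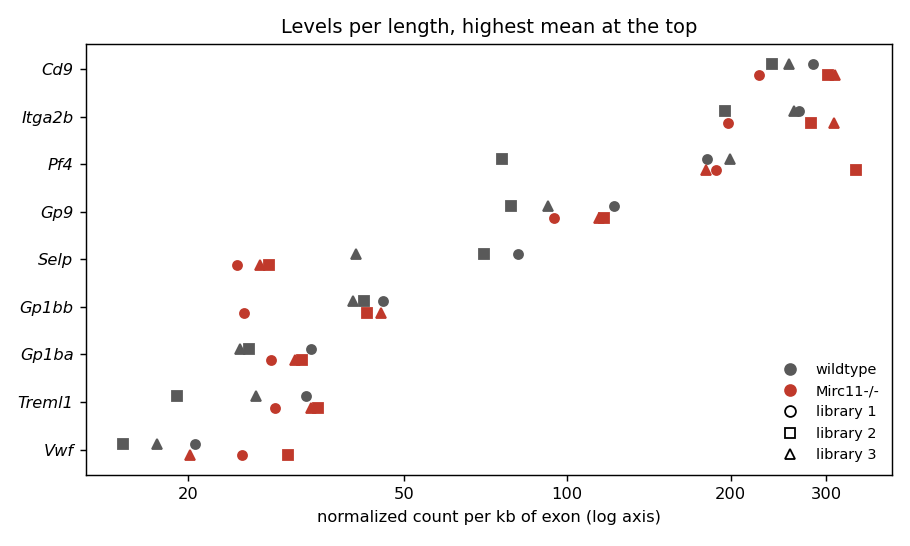
Normalized count per kb of exon (log axis) of 9 platelet genes in each library, ordered by mean. Wildtype libraries are grey and Mirc11-/- libraries red, and symbols mark the library number. Cd9, Itga2b and Pf4 lie highest, with means of 269, 252 and 194, and Vwf is lowest at 21.6.

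The genes of the receptor for von Willebrand factor differed in level per kb. Wildtype means were 97.6 ± 22.1 for Gp9, 42.8 ± 2.80 for Gp1bb and 28.2 ± 4.81 for Gp1ba (SD, n = 3), in normalized counts per kb. Gp5 ranged from 41.5 to 78.5 over the libraries, and Gp9 was the highest of the 4 genes in each of the 6 libraries. The α and β chains of the fibrinogen receptor also stood apart. Itga2b ranged from 195 to 309 normalized counts per kb over the libraries and Itgb3 from 42.7 to 69.7.

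The 9 genes did not share 1 order of libraries. Wildtype library 2 was the lowest for 5 genes (Pf4, Itga2b, Gp9, Vwf and Treml1) and Mirc11-/- library 1 for 3 (Gp1bb, Selp and Cd9). Wildtype library 1 was the highest for Gp1ba, Gp1bb, Gp9 and Selp, Mirc11-/- library 2 for Pf4, Vwf and Treml1, and Mirc11-/- library 3 for Itga2b and Cd9. The summed count of the 10 genes was 2416 to 3197 in wildtype and 2441 to 3341 in Mirc11-/- libraries, and 44.0% to 52.3% of it came from Itga2b.

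The genes most like a platelet gene across the libraries were found by the root mean square (RMS) difference of centred log2 values over the 6 libraries, among 13201 genes with a mean of at least 10. For Itga2b these were Gm5113 (RMS 0.0444), Pde1b (0.0553) and Zfp948 (0.0563). The nearest platelet gene was Cd9 at rank 32 (RMS 0.108), and Gp9 followed at rank 244. For Vwf they were Gm10033 (0.0739), Aqp9 (0.0779) and Cd55 (0.0793), with Treml1 as the nearest platelet gene at rank 498. Pf4 had no gene closer than Ttc39a (0.192), followed by Slc45a3 (0.218) and Vmn2r84 (0.224), and its nearest platelet gene was Vwf at rank 80. For Selp the nearest gene was its overlapping neighbour Gm16548 (0.160), then Hist1h4c (0.212) and C030013G03Rik (0.219), and the nearest platelet gene was Gp1bb at rank 1370.

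The wider megakaryocyte program was read from 6 lists with 112 genes, 108 of them tested. Limma called 0 of them, 9 were higher and 7 lower with an unadjusted p under 0.05 (all genes, 4.15% higher and 4.09% lower), and the lists together had a median log2 fold change of 0.01. DESeq2 called 2 higher (Zfpm1 and Tal1) and 1 lower (Tpm4), and edgeR called 0. Without Mirc11-/- library 3, limma called 5 higher (Gata1, Gfi1b, Zfpm1, Tal1 and P2ry1) and 6 lower (Mef2c, Etv6, Tpm4, Dok2, Cd34 and Flt3), in the fit that called 1.94% of all genes higher and 1.46% lower. The counts of each list that follow stand against the same shares of all genes past an unadjusted p under 0.05, 4.15% higher and 4.09% lower.

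Among 16 transcription factors, 4 were higher at an unadjusted p under 0.05 (Gata1, Gfi1b, Zfpm1 and Tal1) and 2 lower (Mef2c and Etv6), and the list's median was -0.09. Zfpm1, which encodes the GATA cofactor FOG-1, was read at 1850, 1720 and 1870 in wildtype and 2484, 2769 and 2202 in Mirc11-/- libraries, without overlap (log2 fold change 0.45, SE 0.10, adjusted p = 0.406 by limma). Tal1, a factor that early blood cells and both the red cell and platelet lineages need, was read at 1995, 1815 and 2149 in wildtype and 2637, 2933 and 2475 in Mirc11-/- libraries, also without overlap (0.43, SE 0.10, adjusted p = 0.419 by limma). Gfi1b, a repressor of the same lineages, did not overlap either, with 744, 598 and 500 in wildtype and 1069, 1044 and 758 in Mirc11-/- libraries (0.64, SE 0.17, adjusted p = 0.441 by limma).

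These 3 factors, and Gata1, serve red cell formation as well as megakaryocytes. Gata1 held 809, 540 and 428 in wildtype and 1289, 1244 and 571 in Mirc11-/- libraries, and library 3 lay within the wildtype range. Of 20 erythroid markers, 1 (Hemgn) lay wholly above wildtype over all 3 Mirc11-/- libraries, against 6.42% of all genes. The medians of the 20 relative to the wildtype mean were 1.50, 1.38 and -0.16 on the log2 scale in Mirc11-/- libraries 1, 2 and 3. Their summed level was 22651 to 32264 in wildtype and 24001 to 58427 in Mirc11-/- libraries. The median of the 9 platelet genes on that scale was -0.02, 0.23 and 0.25 in the same 3 libraries. The part of the erythroid transcripts in the values of Vwf and of the 4 factors was not tested.

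**Figure D5:**
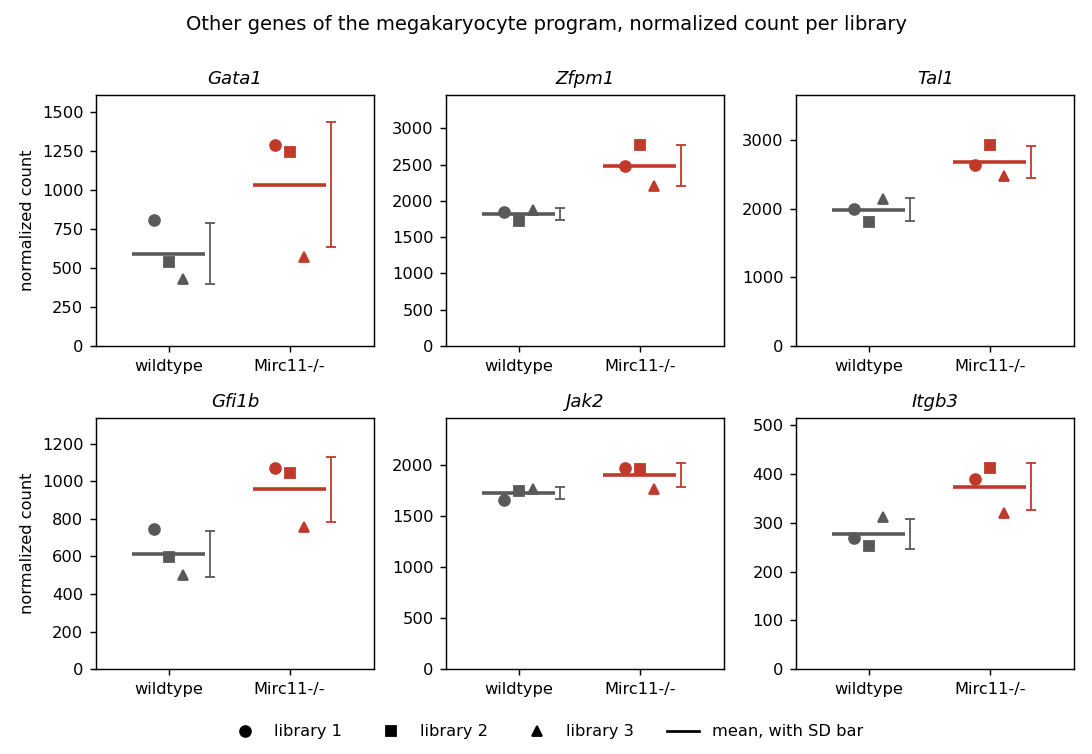
Normalized count of 6 further genes of the megakaryocyte program in each LSK library, with means and SDs (n = 3 each) and axes from 0. Zfpm1, Tal1, Gfi1b and Itgb3 do not overlap between the groups, while Gata1 and Jak2 do. The genes were picked for a small p within their list, and Gata1 was added after its values were seen. All 6 have a positive log2 fold change, and lower genes with a small p, such as Tpm4 and Cd226, are not drawn. Of all 108 tested genes of the 6 lists, 8 lay wholly higher and 5 wholly lower in Mirc11-/- libraries. Over all genes the shares were 6.42% and 6.53%.

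The thrombopoietin pathway gave 0 of 8 tested genes at an unadjusted p under 0.05. Jak2, the kinase that starts its signal, was read at 1661, 1747 and 1771 in wildtype and 1971, 1968 and 1765 in Mirc11-/- libraries, with library 3 within the wildtype range. Its difference on the log2 scale was 0.14 (SE 0.08), and that of Stat5b, which the kinase activates, was -0.08 (SE 0.09).

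At an unadjusted p under 0.05, 2 of 26 other platelet surface receptors were higher and 1 was lower. Itgb3, the β chain that pairs with the product of Itga2b, was read at 268, 252 and 311 in wildtype and 390, 411 and 319 in Mirc11-/- libraries. The groups did not overlap, by a margin of 319 over 311, and the log2 fold change was 0.43 (SE 0.14, adjusted p = 0.502 by limma). Itgb1, the β chain of the collagen and fibronectin receptors, had 0.23 (SE 0.08). Cd226, an adhesion receptor, was the lower one with -2.02 (SE 0.64), at 7.89, 2.98 and 10.1 in wildtype and 0.946, 0 and 2.01 in Mirc11-/- libraries, a handful of reads.

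By the same limit, 2 of 20 granule genes tested were higher and 0 lower. Mmrn1, which encodes the factor V carrier multimerin, was read at 355, 287 and 608 in wildtype and 469, 838 and 891 in Mirc11-/- libraries, and the groups overlapped (log2 fold change 0.83, SE 0.31, adjusted p = 0.534 by limma). Pros1, the gene of the anticoagulant protein S, had 0.57 (SE 0.23). Srgn, the proteoglycan that holds granule cargo and the list's gene with the highest mean, had -0.10 (SE 0.11), and Tgfb1 had -0.19 (SE 0.09).

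Among 24 cytoskeletal and signaling genes, 0 were higher and 2 lower by this limit. Tpm4, a tropomyosin used in platelet formation, was read at 1226, 1354 and 1154 in wildtype and 880, 795 and 888 in Mirc11-/- libraries. The groups did not overlap, and the log2 fold change was -0.54 (SE 0.09, adjusted p = 0.322 by limma, 0.00175 by DESeq2). Plcg2, a phospholipase downstream of the collagen receptor, had -0.25 (SE 0.10), Bin2 had -0.20 (SE 0.12) and Tln1, the integrin activator talin, had 0.04 (SE 0.08).

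Among 15 genes of the stem cell surface and of platelet-biased stem cells, 1 was higher and 2 lower by this limit. Sult1a1, a sulfotransferase gene, was read at 11.8, 14.9 and 29.4 in wildtype and 44.4, 58.2 and 48.3 in Mirc11-/- libraries, without overlap (log2 fold change 1.47, SE 0.36, adjusted p = 0.419 by limma). Cd34 and Flt3, surface markers of multipotent progenitors within the LSK gate, had -0.43 (SE 0.18) and -0.49 (SE 0.22). Cd34 was read at 12410, 12883 and 13794 in wildtype and 7475, 9009 and 13380 in Mirc11-/- libraries, with library 3 again within the wildtype range. Without that library the differences were -0.67 for Cd34 and -0.77 for Flt3.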

How the data were processed

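LSK cells were sorted by flow cytometry, and polyadenylated RNA was made into libraries with a kit that does not keep the strand. STAR, Cufflinks and the build mm10 are listed in the submitters' processing notes, with versions not given in the sources used here. Although its name says FPKM, the deposited table holds a signal per gene, the count of reads scaled by 1 factor per library and not by length. Every column had 100% of its nonzero values within 0.001 of a whole multiple of its factor, and reads were recovered from them. The table's 23999 entries hold 23997 symbols, and 2 date-like symbols on 2 entries each were summed.

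The genotypes were compared in R 4.3.3 with limma 3.58.1 (empirical Bayes moderation with a trend, two-sided) on log2(value + 1), for genes with a mean of at least 1, with Benjamini-Hochberg adjustment over all 15662 of them. The planned design allowed for either unit and was kept. P-values measure the spread between these RNA preparations of pooled mice.

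The members and the gene lists were chosen with earlier results of these data known. Named were all members, their neighbours on the chromosome, from each megakaryocyte list the 3 genes with the smallest p and the 1 with the highest mean, the 2 markers of each other cell type with the highest mean, and the 3 genes most like Pf4, Itga2b, Vwf and Selp. Gata1, Gp5 and the other listed genes past a threshold were added after their values were seen. Some genes that this rule selects are not reported here.

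The settings varied were the pseudocount (0.5 and 0.1), the filter (none, and a mean of 5), the scaling (median-ratio and TMM factors), the trend of limma, a replicate block, the omission of each library in turn, and the tool, with edgeR 4.0.16 and DESeq2 1.42.0 on recovered reads. Sequences came from RefSeq (GRCm38.p6), positions and 3′ UTRs from GENCODE vM21 (GRCm38).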

Additional observations from a re-analysis of the deposited data

How the results depend on the processing

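Of the 9 tested platelet genes, 0 were called higher in every setting run, and 1 was called lower (Selp) by DESeq2 and without Mirc11-/- library 3, with 0 to 1 over the libraries left out. For the other megakaryocyte genes DESeq2 called 2 higher and 1 lower, and leaving out 1 library gave 0 to 5 higher and 0 to 6 lower. Over all genes, the 1 higher call became 8 without the filter, 2 without the trend and 38 by DESeq2, and ranged from 1 to 303 with 1 library left out. The 4 lower calls became 2 without the trend and 87 by DESeq2, and ranged from 0 to 228, with both maxima without Mirc11-/- library 3.

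Of the 9 platelet genes and 23 others followed through the settings, 2 turned direction, each only when a library was left out, and neither was called. The log2 fold change of Itga2b ranged from -0.037 (wildtype library 2 left out) to 0.30, with -0.021 when Mirc11-/- library 3 was left out. That of Gp1bb ranged from -0.37 to 0.042 (Mirc11-/- library 1 left out). The cause was not tested. Of the 90 values of the 9 genes under the 10 other settings, 89 kept their direction and their side of the threshold, and the exception was Selp by DESeq2.

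Whether the replicate numbers pair the libraries could not be decided, since deviations from a mean of 3 libraries are bound to sum to 0. The correlations of same-numbered deviations were 0.0664, -0.0632 and 0.0969. The last, between the libraries numbered 3, was the largest of all pairs, while Mirc11-/- library 1 correlated best with wildtype library 2 (0.0741). With the replicate block limma called 3 genes higher and 27 lower over all genes and 0 platelet genes, and the adjusted p of Selp was 0.0975. Gp6, with 2 reads, is the gene that depth limits.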
